A study of Homo sapiens with 2 samples.

Results

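KDM1B, also named LSD2, is a flavin-dependent demethylase that removes methyl groups from histone H3. The peaks described here are the KDM1B ChIP peaks that lay inside genes for long non-coding RNAs (lncRNAs) and away from every protein-coding gene. A peak belonged to them when it was narrower than 5 kb, lay on chromosomes 1 to 22 or X, and had its midpoint inside the span of a RefSeq lncRNA gene and more than 5 kb from any protein-coding gene span. By this rule 2512 of the 78536 listed peaks were lncRNA gene peaks, 3.20% of the list (95% Clopper-Pearson interval 3.08 to 3.33%). The rule used position and width, not the enrichment of a peak, and the label was met by the annotation for every peak counted.

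The data came from MDA-MB-231, an established line of triple-negative breast cancer cells, in which KDM1B with a 3xFLAG tag was stably expressed from the retroviral vector pOZ. The ChIP group was 1 library precipitated with anti-FLAG antibodies and the input group was 1 library of the same tagged cells, so both carried the transgene. Clone number and transgene level are not stated in the labels, no library of untagged cells was analysed here, and a list of peaks cannot check the cell type against expressed markers. With 1 library a side there was no replicate error and no test between conditions. For each peak the deposited list has its position in hg38 and a value that was read as the authors' log2 ratio of ChIP to input. The list has no header, so this meaning was inferred from the numbers. No read counts come with it, so sequencing depth is unknown. All intervals below cover counting error over peaks, genes or windows only, and neighbouring peaks are not independent replicates.

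LncRNAs are transcripts without a long open reading frame that are spliced and capped much like messenger RNA. Some start at CpG-rich promoters, some arise from enhancers, and some serve mainly as precursors from which microRNAs (miRNAs) or small nucleolar RNAs are cut. LSD2 is known from gene bodies as well as promoters, so the place of a peak within an lncRNA gene, at its start or deep inside it, is part of the description.

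The sequences that carry the results on gene starts are the windows around annotated lncRNA starts, 250 bases before to 50 after, from RefSeq (GRCh38.p14, the patch release of the hg38 build), shown 5′ to 3′ on the strand of the gene with CpG dinucleotides in capitals. They contrast a start dense in CpG with starts poor in it, all under a lncRNA gene peak. MIR17HG, the precursor of the miR-17 to miR-92a cluster, starts in chr13:91347437-91347736 (plus strand, 42 CpG, 73.0% G and C) under a peak with a log2 ratio of 2.33. DLEU2, host of miR-15a and miR-16-1, has an internal start in chr13:50081992-50082291 (minus strand, 23 CpG, 58.7% G and C) under a peak with a log2 ratio of 2.76. The same peak also overlapped a start window of DLEU1, and the other start window of DLEU2 (24 CpG) was under no lncRNA gene peak. MIR100HG, host of miR-100, let-7a-2 and miR-125b-1, has an internal start in chr11:122100797-122101096 (minus strand, 10 CpG) under a peak with a log2 ratio of 2.98. CYTOR starts in chr2:87455177-87455476 (plus strand, 5 CpG, log2 ratio 2.37) and MIR4435-2HG in chr2:111495112-111495411 (minus strand, 3 CpG, log2 ratio 2.28). LINC02808 has an internal start in chr1:50298292-50298591 (minus strand, 1 CpG) under a peak with a log2 ratio of 5.99. This peak lay 22482 bp from the nearest end of the gene, and the other start windows of LINC02808 were under no lncRNA gene peak. It is shown as the start under one of the strongest peaks.
MIR17HG: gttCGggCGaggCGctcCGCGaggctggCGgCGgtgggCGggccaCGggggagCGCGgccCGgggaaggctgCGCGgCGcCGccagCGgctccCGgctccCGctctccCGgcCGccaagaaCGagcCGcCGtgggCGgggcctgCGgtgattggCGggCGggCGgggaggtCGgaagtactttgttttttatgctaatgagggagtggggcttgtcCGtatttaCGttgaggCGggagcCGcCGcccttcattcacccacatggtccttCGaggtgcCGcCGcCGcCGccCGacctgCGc
DLEU2: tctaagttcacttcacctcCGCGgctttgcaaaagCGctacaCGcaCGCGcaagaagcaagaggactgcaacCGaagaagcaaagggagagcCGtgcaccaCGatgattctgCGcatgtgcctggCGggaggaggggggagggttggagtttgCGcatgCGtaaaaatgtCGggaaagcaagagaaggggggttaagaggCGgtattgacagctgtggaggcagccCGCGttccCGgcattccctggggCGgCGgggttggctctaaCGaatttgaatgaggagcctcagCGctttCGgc
MIR100HG: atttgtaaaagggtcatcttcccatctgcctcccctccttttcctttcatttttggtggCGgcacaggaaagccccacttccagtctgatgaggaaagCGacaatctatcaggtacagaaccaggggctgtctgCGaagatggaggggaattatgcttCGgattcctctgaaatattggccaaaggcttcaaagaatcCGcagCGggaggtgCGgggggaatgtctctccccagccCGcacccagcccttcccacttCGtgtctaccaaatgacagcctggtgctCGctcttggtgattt
CYTOR: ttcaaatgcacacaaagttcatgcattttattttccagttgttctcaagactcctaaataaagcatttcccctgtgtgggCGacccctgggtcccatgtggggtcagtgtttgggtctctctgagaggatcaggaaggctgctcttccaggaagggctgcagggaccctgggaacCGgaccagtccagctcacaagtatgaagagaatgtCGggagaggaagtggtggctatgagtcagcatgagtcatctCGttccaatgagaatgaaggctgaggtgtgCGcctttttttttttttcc
MIR4435-2HG: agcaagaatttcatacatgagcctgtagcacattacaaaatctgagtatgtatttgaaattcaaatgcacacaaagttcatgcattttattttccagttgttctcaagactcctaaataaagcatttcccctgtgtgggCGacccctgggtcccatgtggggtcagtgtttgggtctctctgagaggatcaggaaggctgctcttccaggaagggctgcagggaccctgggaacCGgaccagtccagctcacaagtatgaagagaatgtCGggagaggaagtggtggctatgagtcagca
LINC02808: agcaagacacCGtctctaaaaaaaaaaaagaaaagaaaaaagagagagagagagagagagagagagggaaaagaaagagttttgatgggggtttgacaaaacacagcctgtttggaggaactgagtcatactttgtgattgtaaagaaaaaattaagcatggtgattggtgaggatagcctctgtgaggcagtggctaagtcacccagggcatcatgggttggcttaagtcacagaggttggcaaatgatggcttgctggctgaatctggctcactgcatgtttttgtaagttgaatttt
The windows of CYTOR and MIR4435-2HG hold an identical stretch, 241 of 241 aligned bases. Reads from such a stretch may map to either gene, and the labels do not say how the authors' mapping placed them, so the separate values of these genes are uncertain.

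Several lncRNA genes with peaks host miRNAs, whose mature sequences from RefSeq are given 5′ to 3′ with the seed (bases 2 to 8), the part that pairs with targets, in capitals. For each of them a lncRNA gene peak covered the hairpin or lay within 3 kb of it. They are a selection, and miRNAs of other hairpins within this distance, such as MIR4449, MIR7-3 and MIR1915, are not shown.
hsa-miR-17-5p: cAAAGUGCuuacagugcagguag
hsa-miR-20a-5p: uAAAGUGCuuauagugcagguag
hsa-miR-18a-5p: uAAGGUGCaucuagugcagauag
hsa-miR-19a-3p: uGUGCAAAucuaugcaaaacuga
hsa-miR-19b-3p: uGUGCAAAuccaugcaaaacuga
hsa-miR-92a-3p: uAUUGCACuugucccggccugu
hsa-miR-15a-5p: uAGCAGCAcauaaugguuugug
hsa-miR-16-5p: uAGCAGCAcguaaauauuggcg
hsa-miR-503-5p: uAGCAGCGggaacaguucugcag
hsa-miR-100-5p: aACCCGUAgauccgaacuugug
hsa-let-7a-5p: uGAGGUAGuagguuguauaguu
hsa-miR-125b-5p: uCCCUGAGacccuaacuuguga
hsa-miR-138-5p: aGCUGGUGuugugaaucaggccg
From the MIR17HG cluster, miR-17 and miR-20a share 1 seed and miR-19a and miR-19b another. MiR-15a and miR-16, both hosted by DLEU2, share a seed as well. Of the MIR100HG miRNAs shown, the seeds of miR-100, let-7a and miR-125b all differ.

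Among 191 annotated miRNA hairpins inside lncRNA genes and more than 5 kb from coding genes, 68 had a host gene with a lncRNA gene peak, and 8 hairpins were themselves overlapped by such a peak. Hairpins of the same host were counted separately, as in MIR17HG with its 1 peak, so the 68 are not independent cases. Of all lncRNA genes counted, 13.2% held such a peak, a share per gene and not per hairpin. The 8 were MIR125B1, MIR138-1, MIR503, MIR4449, MIR3180-3, MIR3680-1, MIR4487 and MIR8078. The peak over MIR8078 had a log2 ratio of 1.10, among the lowest of all lncRNA gene peaks. MIR3180-3 shares the sequence of miR-3180-5p with MIR3180-1 and MIR3180-2, so the placing of reads there is uncertain as well. Another way to see the distance is that 18 of the hairpins lay within 1 kb of a lncRNA gene peak and 36 within 5 kb. The share of all lncRNA gene sequence as close to a peak was not computed, so the hairpin counts have no background beside them. MIR125B1 lay under the widest peak of MIR100HG (chr11:122098979-122103261, log2 ratio 2.98), while MIR100 lay 978 bp from a peak with a log2 ratio of 2.04, MIR10526 lay 982 bp from one with 2.87 and MIRLET7A2 lay 2777 bp from one with 3.46. All 4 annotated hairpins of that gene thus had a peak within 3 kb, but its peaks were dense there. The median gap between MIR100HG peaks was 1.58 kb, and 28 of 29 lay in the lower-coordinate part, which holds these hairpins. The peak over MIR125B1 also covered the internal start whose sequence is given above. MIR138-1, in LOC124909489, was overlapped by a peak with a log2 ratio of 2.74, and MIR503, in MIR503HG on chromosome X, by a peak with 4.65. In DLEU2, MIR16-1 and MIR15A lay 823 and 969 bp from a peak of log2 ratio 2.59. The hairpins of the MIR17HG cluster lay between 1079 bp (MIR17) and 1788 bp (MIR92A1) from the peak over the gene's start, so no peak covered them. Of the genes in this paragraph, DLEU2 and MIR17HG were chosen after their values were seen.

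LncRNA gene peaks were nearly as strong as intergenic peaks and slightly stronger than coding gene peaks. Their median log2 ratio was 3.04 (95% interval of the median 2.99 to 3.09, n = 2512), a linear ratio of 8.22, with quartiles of 2.60 and 3.72 and a range of 0.94 to 6.26. Intergenic peaks, those outside lncRNA genes and more than 5 kb from coding genes, had a median of 3.10 (3.09 to 3.14, n = 6996). Coding gene peaks, inside or within 5 kb of a coding gene, had a median of 2.95 (2.94 to 2.95, n = 67883). The middle of the distribution thus differed little between the classes, and the upper tail more.

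A log2 ratio above 4 was found in 451 lncRNA gene peaks (18.0%, 16.5 to 19.5%), against 20.5% of intergenic peaks (19.6 to 21.5%), 11.8% of coding gene peaks and 12.7% of all peaks under 5 kb. The linear ratios of the list share a common step of 2.64, and 469 lncRNA gene peaks (18.7%, 17.2 to 20.3%) had a ratio that was a whole multiple of it, within 0.0001 of the ratio divided by the step. This form was about as frequent in intergenic peaks (19.98%), rarer in coding gene peaks (11.5%), and made up 12.5% of all peaks under 5 kb. It fills the upper end of the scale: 24 of the 25 strongest lncRNA gene peaks were whole multiples. Scaled ratios of small whole numbers have this form, so the highest ratios may rest on few input reads. That was not tested, since no counts were analysed here. With whole multiples left out the share above 4 was 9.45% in lncRNA gene peaks and 10.6% in intergenic peaks, and the lncRNA median was 2.90, against 2.93 in intergenic and 2.88 in coding gene peaks.

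**Figure D1:**
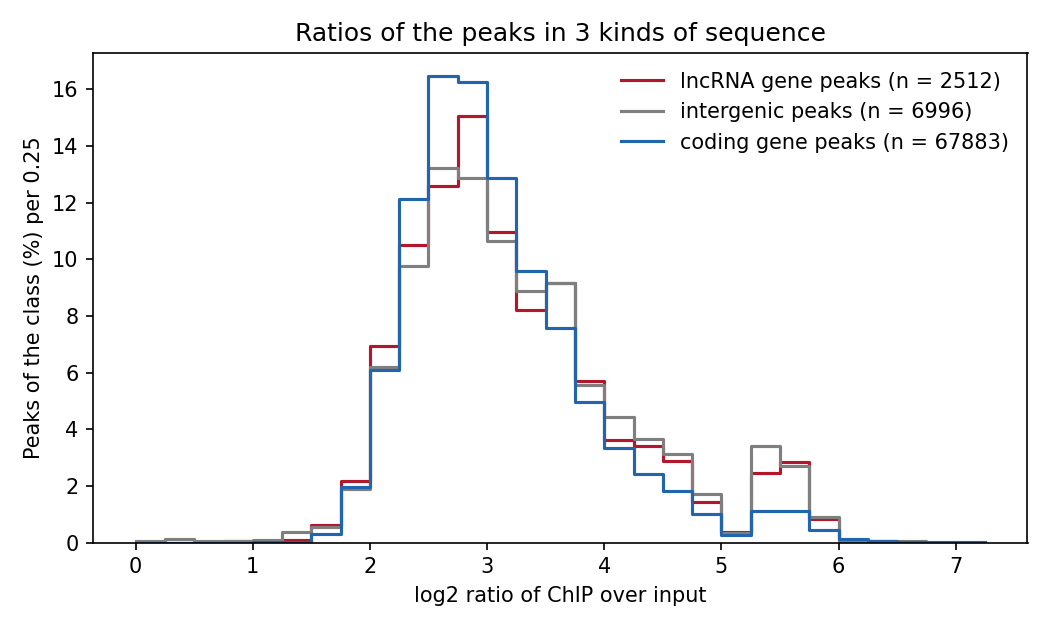
Distribution of the log2 ratio of ChIP over input (x axis, bins of 0.25) as a share of the peaks in each class (y axis, %), for lncRNA gene peaks (red, n = 2512), intergenic peaks (grey, n = 6996) and coding gene peaks (blue, n = 67883). The lncRNA and intergenic curves run close together, and both have a larger share above a log2 ratio of 4 (18.0% and 20.5%) than coding gene peaks (11.8%).

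LncRNA gene peaks were narrow. Their median width was 664 bp (652 to 677), against 653 bp in intergenic and 823 bp in coding gene peaks, and together they covered 1.87 Mb. The shortest width in the list, 500 bp, was shared by 329 lncRNA gene peaks (13.1%), by 15.6% of intergenic and by 7.68% of coding gene peaks. Widths of 1000 bp or more were reached by 10.2% of lncRNA gene peaks, 10.8% of intergenic peaks and 29.7% of coding gene peaks. Among lncRNA gene peaks the narrowest had the highest ratios: the median log2 ratio was 3.93 at 500 bp, 3.19 over 500 and under 700 bp, 2.79 from 700 to under 1000 bp and 2.78 from 1000 bp up. At matched width the lncRNA and intergenic medians were close, with 3.93, 3.24, 2.82 and 2.82 in intergenic peaks. Coding gene peaks of the same widths had medians of 3.60, 3.08, 2.75 and 2.97.

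The widest lncRNA gene peak spanned 4822 bp in ZFAS1, a host of small nucleolar RNAs (chr20:49282831-49287653, log2 ratio 2.75). It was followed by 4282 bp in MIR100HG (2.98), 3574 bp in LOC124903662 (2.69), 3407 bp in LINC01000 (3.42) and 3274 bp shared by ANXA2R-OT1 and LOC105374748 (2.69). Just inside the width limit, from 4 to 5 kb, were 2 peaks, with log2 ratios of 2.75 and 2.98. Just outside it, at 5 kb or more, were 2 that met the rest of the rule, with 2.65 and 3.46. At the distance limit, 93 peaks lay 5 to 6 kb from a coding gene, with a median log2 ratio of 2.99, and 103 peaks in lncRNA genes lay 4 to 5 kb away, with a median of 2.85.

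LncRNA genes held more peaks per Mb than intergenic sequence at the same distance from coding genes. Over all distances there were 7.27 lncRNA gene peaks per Mb (exact Poisson 95% interval 6.99 to 7.56, over 346 Mb), against 5.97 intergenic peaks per Mb (5.84 to 6.12, over 1171 Mb), a ratio of 1.22. Sequence inside lncRNA genes lay more often at distances over 100 kb from coding genes, where peaks of both classes were scarcer: at the intergenic densities of the same distances the lncRNA territory would hold 1913 peaks, and the 2512 found are 1.31 times that number. The ratio was above 1 on 18 of 23 chromosomes and below 1 on chromosomes 4, 5, 15, 16 and 22. Assembly gaps and sequence to which reads cannot be mapped were not taken out of the Mb of either class. Their part in these ratios was not tested.

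From 5 to 20 kb away from a coding gene, lncRNA genes held 16.6 peaks per Mb (15.4 to 17.9), against 14.6 (14.1 to 15.2) in intergenic sequence. Between 20 and 50 kb the densities were 10.8 (9.93 to 11.7) and 9.55 (9.12 to 10.0), intervals that meet. From 50 to 100 kb they were 8.46 in lncRNA genes and 6.19 in intergenic sequence. The ratio then widened, with 6.14 (5.54 to 6.79) against 3.78 (3.50 to 4.08) from 100 to 200 kb and 3.92 (3.52 to 4.36) against 2.04 (1.87 to 2.24) from 200 to 500 kb, 1.92 times as many in lncRNA genes. Beyond 500 kb there were 86 lncRNA gene peaks at 1.70 per Mb (1.36 to 2.10), against 1.23 (1.09 to 1.39), and the intervals met again.

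**Figure D2:**
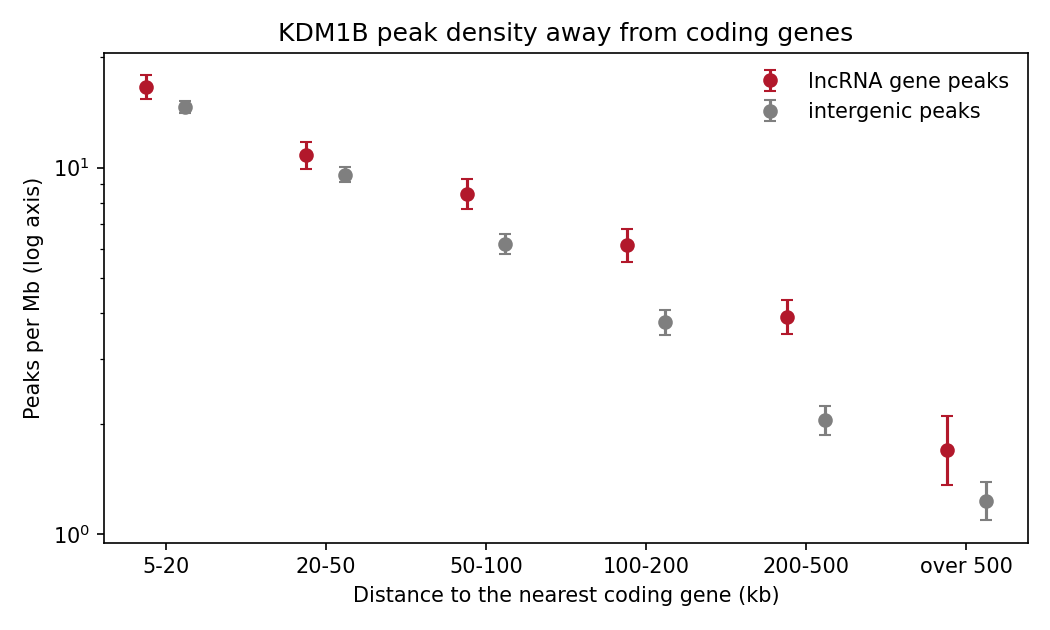
Peaks per Mb (y axis, log scale) by distance to the nearest coding gene (x axis, kb) for lncRNA gene peaks (red) and intergenic peaks (grey), with exact Poisson 95% intervals. Density declined with distance in both classes, and the red points lie above the grey at every distance, most clearly from 100 to 500 kb.

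Ratios were highest far from coding genes, where density was lowest, in both classes. The median log2 ratio of lncRNA gene peaks was 3.03 at 5 to 20 kb, 3.14 at 200 to 500 kb and 3.34 beyond 500 kb, against 3.07, 3.34 and 3.44 in intergenic peaks. Log2 ratios above 4 made up 15.7%, 22.6% and 23.3% of lncRNA gene peaks at these distances, and 17.1%, 33.1% and 32.2% of intergenic peaks. Isolation showed the same order. Of the lncRNA gene peaks, 474 (18.9%) had a neighbour within 1 kb, with a median log2 ratio of 2.74, and 286 (11.4%) had none within 100 kb, with a median of 3.72. The values by distance and by isolation include whole multiples of the step, whose part in these trends was not tested. The median gap to the nearest peak was 8.03 kb for lncRNA gene peaks, 8.62 kb for intergenic peaks and 0.955 kb for coding gene peaks. Pseudogenes contained 65 lncRNA gene peaks (2.59%) and 877 intergenic peaks (12.5%).

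By chromosome, lncRNA gene peaks were most numerous on chromosomes 2 (309), 1 (262), 3 (163) and 8 (160). Per Mb of lncRNA territory they were densest on chromosomes 19 (19.4), 17 (18.7) and 20 (18.0) and sparsest on 4 (2.14), 21 (2.93) and X (3.49). The largest ratios to intergenic density were 3.09 on chromosome X, with 38 peaks, and 1.88 on chromosome 8. PVT1 alone held 65 of the 160 lncRNA gene peaks of chromosome 8, and the ratio there without PVT1 was not computed. Median log2 ratios ran between 2.60 on chromosome 11 and 3.97 on chromosome X. In bins of 1 Mb, 1019 of 2906 held a lncRNA gene peak and 23 held 10 or more. The fullest bin, on chromosome 8, held 48 such peaks, in PVT1, CCAT1, CASC8, CASC21 and LINC02912.

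Of 12076 lncRNA genes with some sequence more than 5 kb from coding genes, 1593 held a lncRNA gene peak, 13.2% (12.6 to 13.8%). Genes with more of such sequence held one more often. The share was 4.58% with under 2 kb of it, 8.03% from 2 to 10 kb and 14.6% from 10 to 50 kb. It was 26.8% from 50 to 200 kb and 43.1% at 200 kb or more. Per Mb the order was the opposite, 40.4 peaks with under 2 kb of such sequence and 4.28 with 200 kb or more. A short span can belong to a longer gene whose remainder lies near a coding gene. Among symbol classes, genes named as miRNA hosts held a peak in 23 of 66 (34.8%, 23.5 to 47.6%), antisense genes in 140 of 613 (22.8%, 19.6 to 26.4%), divergent transcripts in 66 of 328 (20.1%, 15.9 to 24.9%), LINC genes in 323 of 2173 (14.9%) and uncharacterised LOC genes in 920 of 8377 (10.98%, 10.3 to 11.7%). The median lengths counted differed between these classes, with 24216 bp in miRNA hosts and 9190 bp in LOC genes, and the part of length in the difference was not tested.

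A single peak was the common case. Exactly 1 lncRNA gene peak was found in 1143 of the 1593 genes (71.8%), 2 in 270, 3 or 4 in 112, 5 to 9 in 53 and 10 or more in 15. Overlapping genes shared peaks, so 182 peaks counted in 2 genes and 4 in 3. Peaks alone in their gene were stronger and narrower than peaks in crowded genes. The 1046 peaks that were the only one of their gene had a median log2 ratio of 3.28 (3.21 to 3.37) and a median width of 630.5 bp, and 25.2% had a ratio above 4. The 304 peaks in genes with 10 or more had a median of 2.70 (2.60 to 2.78) and a width of 770 bp, and 5.26% had a ratio above 4. Whole multiples of the step made up 24.4% of the 1046 peaks and 10.2% of the 304, and without them the medians were 3.08 and 2.68.

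PVT1 held the most peaks, 65, along 307 kb of chromosome 8 (chr8:127794524-128101256). It is an oncogene-associated lncRNA 51573 bp from MYC, the nearest coding gene. Its peaks covered 63.1 kb or 20.6% of the gene, with a median gap of 2.51 kb, and 24 lay in the lower-coordinate part of the gene and 41 in the upper. Their log2 ratios ran between 2.05 and 3.94 with a median of 2.65, so none passed 4. Without PVT1 the lncRNA median was 3.08 and the density 7.09 per Mb.

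CYTOR, described as a regulator of the cytoskeleton in cancer cells, held 15 peaks (chr2:87455427-87521518, log2 ratio 2.04 to 3.25, median 2.58), all of them shared with the overlapping gene NCAL1, which held 32 (chr2:87455479-87737853, 2.04 to 3.86, median 2.69). MIR4435-2HG, known in blood cells as MORRBID, a regulator of survival of short-lived myeloid cells, held 30 (chr2:111195866-111495161, 2.04 to 5.86, median 2.87). These peaks thus fell into 2 regions of chromosome 2 that share identical sequence at their starts, and a peak in one region may hold reads of the other. MIR100HG held 29 peaks (chr11:122028329-122422871, 1.60 to 3.46, median 2.25), of which 28 lay in the lower-coordinate part of the gene, its 3′ part on the minus strand, and 1 in the upper. The longest stretch of MIR100HG without a peak was 144.6 kb, and 6 of its peaks had a log2 ratio below 2.

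LOC124909489 held 25 peaks (chr3:43999332-44122364) with log2 ratios of 2.09 to 4.86 and a median of 2.84. CYKILR held 20 on chromosome 19 within 52.2 kb (chr19:36269084-36321291), covered 34.9% by them, with the lowest median of the 10 genes, 1.98 (1.60 to 2.70). LINC-PINT, a p53-responsive lncRNA, held 18 (chr7:130877562-131109925) with the highest median, 3.56 (1.95 to 5.65), of which 5 were above 4. SLC44A3-AS1 held 18 (chr1:94616352-94820232, 1.93 to 3.67, median 2.81). LOC642846 held 15 within 30.4 kb (chr12:9283657-9314088, 2.04 to 4.14, median 3.21), which covered 53.5% of it. Ranges overlapped between most of these genes, but no peak of CYKILR reached the median of LINC-PINT. The 10 genes together held 252 different peaks, 10.0% of the lncRNA gene peaks.

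**Figure D3:**
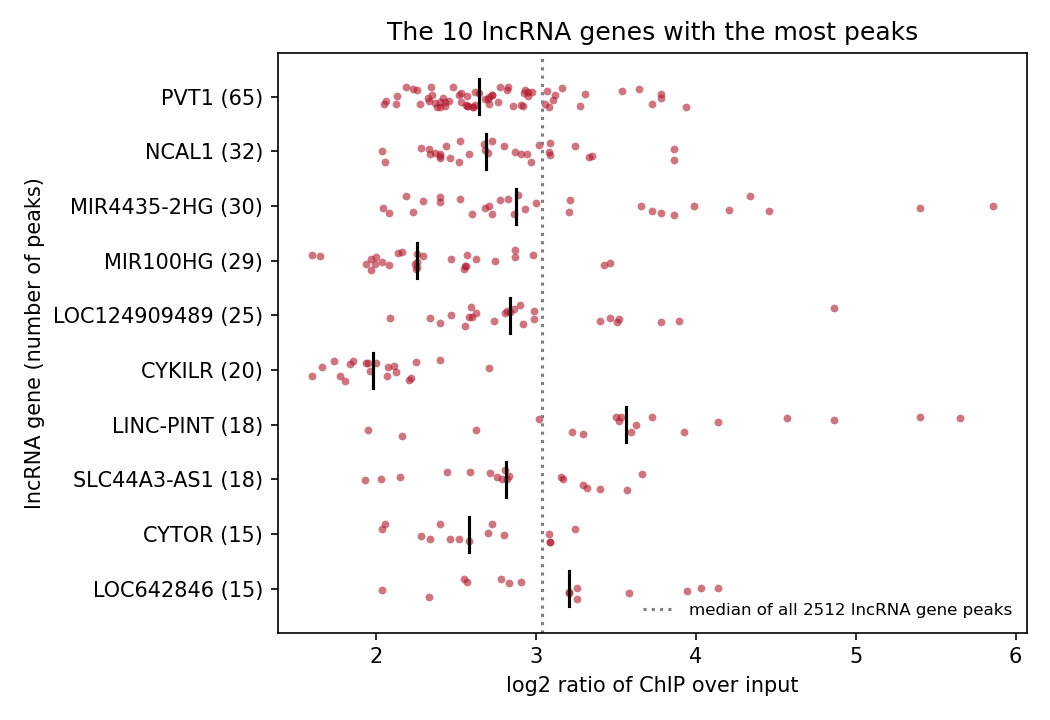
Log2 ratio of ChIP over input (x axis) of each lncRNA gene peak (points) in the 10 genes with the most peaks (rows, number of peaks in brackets), with the median of each gene (black bar) and of all 2512 lncRNA gene peaks (dotted line, 3.04). CYKILR lies wholly left of the dotted line, and medians to its right are seen in LINC-PINT (3.56) and LOC642846 (3.21).

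With the exception of one in MIR4435-2HG, the strongest single peaks lay outside the 10 genes with the most peaks. LINC01396, 10640 bp from MSX1, had the highest log2 ratio, 6.26 (chr4:4848640-4849411). LOC107984782 followed with 6.10 (chr15:61681216-61681974), LINC00174 with 6.05 (chr7:66391857-66392644), and LAPTM4A-DT and LINC02808 with 5.99 each. After these, 11 peaks tied at 5.86, in FAM230D, LINC00210, LINC03036, LOC101929307, LOC105370003, LOC105372633, LOC105373411, LOC107986930, LY6E-DT, MACC1-OT1 and MIR4435-2HG. All of these ratios were whole multiples of the common step, and tied peaks have the same multiple. The weakest peak, with a log2 ratio of 0.94, lay in FAM27E4.

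Peaks crowded towards the starts of lncRNA genes. RefSeq starts were available for 7342 of the 12076 genes, with 1675 peaks. Only sequence inside the spans of these genes was counted, so the side before a start counted only where it lay in such a span. Within 0.5 kb of a start the density was 37.0 peaks per Mb (31.2 to 43.7, 142 peaks), against 18.9 from 0.5 to 1 kb, 11.8 from 2 to 5 kb, 8.57 from 10 to 20 kb and 3.74 (3.30 to 4.21) beyond 50 kb. The counted sequence within 1 kb of a start held 28.2 per Mb (24.5 to 32.3), against 6.92 (6.57 to 7.29) farther away. These 211 peaks were 12.6% of those counted, on 3.41% of the sequence, so most lncRNA gene peaks lay away from an annotated start. Their ratios were not higher: the median log2 ratio was 2.89 within 1 kb of a start and 3.03 beyond.

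**Figure D4:**
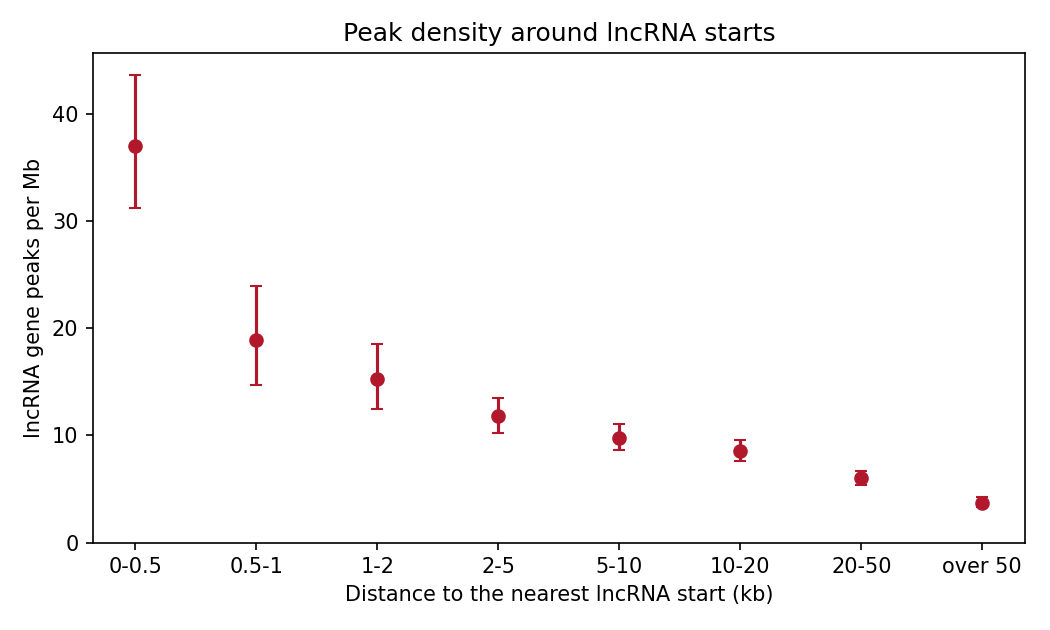
LncRNA gene peaks per Mb (y axis) by distance to the nearest annotated lncRNA start (x axis, kb), with exact Poisson 95% intervals, over genes with a start in RefSeq (1675 peaks). The density was 37.0 per Mb in the first 0.5 kb and 3.74 beyond 50 kb.

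Along the 2746 lncRNA genes of 10 kb or more that lay wholly outside coding neighbourhoods, divided into 10 equal parts, the part at the start held 164 of 869 peaks (18.9%, 16.3 to 21.6%). The next part held 90 (10.4%), the ninth 56 (6.44%) and the last 79 (9.09%). Of the 10 parts only the one at the start had an interval wholly above 10%, the share of an even spread, and the eighth (7.59%) and ninth had intervals wholly below it. Counting either end of a gene, 358 of the 2512 peaks (14.3%, 12.9 to 15.7%) lay within 1 kb of one.

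The share of starts under a peak went up with their CpG content. Of 6701 start windows more than 5 kb from coding genes, 183, from 165 genes, were overlapped by a lncRNA gene peak. Among windows with 0 to 2 CpG dinucleotides 21 of 2806 were overlapped (0.748%), with 3 to 9 CpG 2.06%, with 10 to 19 CpG 5.34%, and with 20 or more 72 of 540 (13.3%, 10.6 to 16.5%). With 1 window per gene the shares were 0.685%, 2.05%, 4.78% and 13.1%. Windows under a peak had a median of 15 CpG and 59.3% G and C, windows without one 3 CpG and 46.0%, and all promoters of the RefSeq table, 14 CpG and 58.7%. The log2 ratios of the overlapping peaks ran the other way. Their medians, counted per window, were 3.23 over starts with 0 to 2 CpG, 2.93 with 3 to 9, 2.70 with 10 to 19 and 2.68 with 20 or more. The 183 windows lay under 149 peaks, so a shared peak counted more than once. With 1 window per gene the medians were 3.23, 2.91, 2.70 and 2.72, so the decline ended at 10 to 19 CpG. Of the starts printed above, MIR17HG (2.33) and DLEU2 (2.76) are CpG-dense with moderate ratios. CYTOR (5 CpG, 2.37) and MIR4435-2HG (3 CpG, 2.28) are CpG-poor with low ratios, and LINC02808 (1 CpG, 5.99), shown for its strength, is the highest of its CpG group and a whole multiple of the step. G and C content moved with CpG content in these windows, and the part of each in these shares was not tested.

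**Figure D5:**
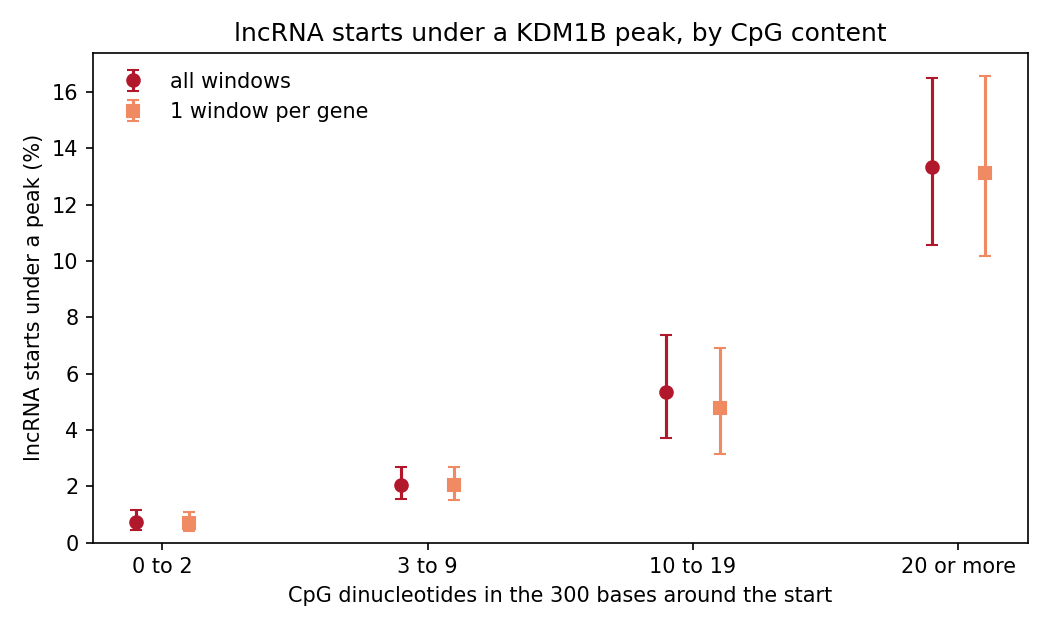
Share of lncRNA start windows overlapped by a lncRNA gene peak (y axis, %) by the number of CpG dinucleotides in the 300 bases of the window (x axis), with Clopper-Pearson 95% intervals, for all windows (circles) and for 1 window per gene (squares). The share was 0.748% with 0 to 2 CpG and 13.3% with 20 or more.

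Short motifs in the start windows, searched on both strands, differed mainly where they follow base composition. GGGCGG, the core of the GC box, which itself holds a CpG, was in 36.6% of windows under a peak, 13.6% of those without and 45.0% of all promoters in the table. TATAAA, found before many starts, was in 7.10% of windows under a peak, 19.5% of those without and 11.5% of all promoters. CCAAT was in 37.2%, 36.9% and 34.6% of the same 3 sets. The AP-1 motif TGANTCA was in 10.4%, 12.3% and 7.68%, the E-box CACGTG in 6.56%, 4.43% and 7.27%, and the YY1-type motif GCCATNTT in 3.28%, 5.17% and 6.58%. Of the printed windows, those of CYTOR, MIR4435-2HG and LINC02808 hold TGANTCA. The match of MIR4435-2HG lies in the stretch identical with CYTOR, so these genes are not separate cases of it. A match is a run of letters and not evidence of a bound factor.

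LncRNAs linked to breast cancer or metastasis were often peak-bearing. Of 17 such genes with sequence outside coding neighbourhoods, 9 held a lncRNA gene peak (52.9%, 27.8 to 77.0%), against 13.2% of all lncRNA genes counted, and their 91 peaks had a median log2 ratio of 2.70; PVT1 supplied 65 of these. The highest ratio was 5.57 in LINC00511 (chr17:72600990-72601629), a whole multiple of the step. LINC00673 had peaks at 4.79 and 3.89, and FENDRR, next to FOXF1, had 1 at 3.67. NEAT1, the scaffold of paraspeckles, had 4 peaks at 2.69, 1.99, 3.35 and 2.75, spread along the gene. DANCR had 1 at 2.99, 130 bp from its start, CCAT1 had 1 at 2.22 and ZFAS1 1 at 2.75. CYTOR also belongs to the list. No lncRNA gene peak was found in MALAT1, HOTAIR, LINC00460, BCAR4, LINC01638, LINC02273, CCAT2 or MIR31HG. The nearest peak to MALAT1, an abundant nuclear lncRNA, lay 1233 bp outside it with a log2 ratio of 5.57. HOTAIR had 1 peak at 4.21, but within 5 kb of a coding gene. Around MIR31HG the nearest peak was 741 kb away.

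Immune and inflammatory lncRNAs were nearly without such peaks. Of 17 counted genes only MIR4435-2HG held any (5.88%, 0.149 to 28.7%), an interval that contains the 13.2% of all lncRNA genes. No lncRNA gene peak was found in LNCAROD, IFNG-AS1, LINC00426, NRIR, LINC01871, CHROMR, MIR155HG, UMLILO, LUCAT1, MIR3142HG, HCG18, HCP5, LINC00513, LINC02605, LINC00861 or MIR223HG, though CHROMR held 1 peak within 5 kb of a coding gene. The nearest peak lay 21.9 kb from LUCAT1 and 25.2 kb from MIR155HG, the precursor of miR-155.

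The imprinted lncRNAs also lacked lncRNA gene peaks. MEG3, MEG8, MEG9, PWRN1, SNHG14, PWAR5, PWAR6, IPW and PWAR1 held none over 5 kb from coding genes, 0 of 9 genes. The exact interval allows a share of up to 33.6% and so does not separate them from the 13.2% of all lncRNA genes. The peak nearest to MEG3 lay 131 kb away.

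In a list of lncRNA genes chosen as developmental enhancer or transcription factor neighbours, 6 of 11 held a lncRNA gene peak (54.5%, 23.4 to 83.3%), against 13.2% of all lncRNA genes counted. The list was set by name, and whether a developmental regulator lies next to each gene was not checked. Its 55 peaks had a median log2 ratio of 2.75. LINC-PINT held 18 of them and MIR100HG 29, and the nearest coding genes of these 2 were MKLN1 and BLID. CASC15 had 4 peaks at 3.99, 4.86, 4.34 and 3.52, SOX9-AS1 had its strongest at 3.93, MIR99AHG at 3.19 and LINC01116 at 2.75. No lncRNA gene peak was found in ZEB1-AS1, SOX2-OT, HAND2-AS1, HOTTIP or DLX6-AS1, though ZEB1-AS1 held 2 peaks within 5 kb of a coding gene. SOX2-OT, with 673 kb counted, was long and without a peak, and its nearest one was 100 kb away. These genes were longer than most, with a median of 56.0 kb counted against 10.4 kb for all lncRNA genes, and the part of length was not tested.

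Host genes of small RNAs carried lncRNA gene peaks, those over 5 kb from coding genes, in larger shares than the 13.2% of all lncRNA genes counted. Of the 66 miRNA hosts, 23 (34.8%) held 103 such peaks with a median log2 ratio of 2.72. The strongest were MIR4435-2HG (5.86), MIR4300HG (5.49), MIR3681HG (5.05), and MIR503HG and MIR9-2HG (4.65 each). No lncRNA gene peak was found in the hosts MIR31HG, MIR155HG, MIR205HG, MIR222HG, MIR34AHG, MIR200BHG, MIR137HG, MIR122HG or MIR223HG. The other miRNA hosts without one were MIR3659HG, MIR4422HG, MIR181A1HG, MIR3663HG, MIR202HG, MIR130AHG, MIRLET7IHG, MIR4500HG, MIR4307HG, MIR3171HG, MIR381HG, MIR9-3HG, MIR365BHG, MIR2117HG, MIR3976HG, MIR4527HG and MIR217HG. The remaining ones were MIR4432HG, MIR663AHG, MIR548XHG, MIR3667HG, MIR570HG, MIR3945HG, MIR3936HG, MIR3142HG, MIR5689HG, MIR548A1HG, MIR3147HG, MIR124-1HG, MIR124-2HG, MIR2052HG, MIR4290HG, MIR325HG and MIR106AHG. Peaks within 5 kb of a coding gene were present in MIR137HG and MIR3659HG (2 each) and in MIR130AHG, MIRLET7IHG, MIR3976HG and MIR3936HG (1 each). Of 14 snoRNA hosts, whose introns hold small nucleolar RNAs, 6 held 7 such peaks (42.9%, 17.7 to 71.1%, against 13.2% of all lncRNA genes) with a median of 2.80. This count depends on the rule: it was 2 at more than 10 kb from coding genes, 1 at more than 20 kb, 2 among the 39252 strongest peaks of the list and 3 with the whole peak inside the gene. These were SNHG30 (3.93), SNHG15 (3.21 and 2.80), SNHG17 (2.88), ZFAS1 (2.75), SNHG26 (2.65) and SNHG11 (2.12). No lncRNA gene peak was found in SNHG28, SNHG14, SNHG16, SNHG31, SNHG33, SNHG27, SNHG32 or SNHG5. Within 5 kb of a coding gene, however, SNHG16 held 4 peaks, SNHG28 2, and SNHG14 and SNHG31 1 each.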

How the data were processed

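Formaldehyde-crosslinked, sonicated chromatin was precipitated with anti-FLAG antibodies, per the labels' protocols. The submitters' processing notes name Trim Galore 0.4.5, Bowtie2 2.2.9 and hg38. The sources used here give no peak caller, no thresholds and no base (0 or 1) for starts. The deposited list has no header, no counts and no p-values, and its last column was taken, from its values, to be a log2 ratio of ChIP over input. The members, gene lists and tests were chosen with earlier results of these data known.

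Gene spans were those of RefSeq on GRCh38.p14, with 19970 protein-coding and 18177 lncRNA genes on chromosomes 1 to 22 and X. The 1113 peaks of 5 kb or wider were left out of every class. Peaks were placed by midpoint, and densities used the 2906 bins of 1 Mb with any gene or peak. Assembly gaps and unmappable sequence inside these bins were not removed. Intervals are exact (Clopper-Pearson, Poisson) or, for medians, binomial order statistics, all at 95%. The common step is the most common linear ratio divided by 3. Genes were named as the 10 with the most peaks, the 10 with the strongest peak, up to 4 of each list by strongest peak with the list genes that had none, and the 5 widest, and further tied or strong list genes were added after their values were seen. Strand, starts and sequences came from RefSeq start windows. ARNILA, TINCR, GNAS-AS1, LINC00461 and LINC00643 were not found as lncRNA genes in the table. The placement was tested on simulated data, where 3000 of 3000 peaks got the right class. Python 3.11.15, numpy 2.4.6, pandas 2.3.3, scipy 1.17.1 and matplotlib 3.10.9 were used. Alternatives were larger distances, joined peaks, the stronger part of the list, whole peaks inside the gene, and removal of PVT1 or of whole multiples.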

Additional observations from a re-analysis of the deposited data

How the results depend on the processing

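With 1 library a side, no replicate could be left out, and every value is counting over one list. No paired analysis was possible because there was 1 ChIP and 1 input library. Of 85 recomputed values, 69 stayed close and 16 moved. The 85 include counts of the gene lists. Most alternatives only removed peaks, so a count of 0, as for the imprinted list, could not move in them. Counts of peaks and genes were held to be close within 1.5 times the reported count, and medians, shares and densities when inside the 95% interval of the reported value. Requiring more than 10 or 20 kb to coding genes gave 6.59 and 5.96 lncRNA gene peaks per Mb, and at 20 kb 12.4% lay within 1 kb of a gene end. Joining peaks within 1 kb gave 6.44 per Mb. Using the 39252 strongest peaks of the list left 1356 lncRNA gene peaks at 3.92 per Mb, with a median width of 603 bp and 12.3% within 1 kb of a gene end. Requiring the whole peak inside the gene gave 6.77 per Mb and 9.07%. Without whole multiples of the step the median log2 ratio was 2.90 and 9.45% were above 4, against 10.6% of intergenic peaks. The ratio of lncRNA to intergenic density stayed between 1.13 (whole peak inside, which was asked of lncRNA gene peaks only) and 1.38 (20 kb), and was 1.19 without PVT1. Recounts of the lists were chosen after seeing the data: the snoRNA hosts with a peak numbered 2 at 10 kb, 1 at 20 kb, 2 in the strongest peaks and 3 with whole peaks inside. Unknown read depth limits every single ratio.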
